A study of Danio rerio with 8 samples.

Results

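The epidermal keratin genes krt4, krt5, krt8, krt15, krt17, krt91, krtt1c19e, cyt1 and cyt1l were taken by gene symbol from the 25725 genes listed for each library, so that 9 of the 10 genes asked for were found. No row carries the symbol krt18, which RefSeq gives as an older name of krt18a.1; that gene is described with the 14 other keratin genes. The 8 libraries were made from zebrafish (Danio rerio) at 5 days postfertilization. For 4 of them exposure to the solvent DMSO began at 2 hours postfertilization. For the other 4, exposure to TCDD (2,3,7,8-tetrachlorodibenzo-p-dioxin), which binds and activates the transcription factor AHR, began at the same time. The labels give the tissue as heart, and neither the strain, the dose, the number of larvae per sample nor separate clutches, so a p-value reflects the variation among these 8 libraries alone, which may be technical.

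Keratins are the intermediate filament proteins of epithelial cells. A type I keratin pairs with a type II keratin to build a filament, and the filaments are anchored at desmosomes and hemidesmosomes. The skin of a zebrafish larva is a thin double sheet, with the periderm outside and basal keratinocytes beneath it, and each layer makes its own mix of keratins. The gene krt4 is widely used to mark the outer layer and krtt1c19e to mark basal keratinocytes. The names are historical, and a zebrafish keratin need not correspond to the mammalian keratin of the same number.

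Total estimated counts were 14048563 to 15183023 per library, and 3 counts, the lowest level taken as detected, were 0.198 to 0.214 CPM (counts scaled to a common library total). All 9 keratins were far above that level and passed the filter on low counts. The libraries DMSO 1 and TCDD 2 stood apart from the other 6 on the second principal component (45.8 and 32.0, against -29.5 to 1.27; 28.1% of the variance), and DMSO 1 had the lowest scaling factor (0.825, against 0.972 to 1.09). The AHR target gene cyp1a was at 101 to 164 CPM in DMSO and 6173 to 9744 CPM in TCDD. The 11 genes of a cardiomyocyte list summed to 1790 to 2051 CPM in DMSO and 1373 to 1935 in TCDD, none of them at 0 throughout, while the 9 keratins summed to 14610 to 17710 CPM in DMSO and 10700 to 15180 in TCDD. The material labelled heart thus held RNA of both kinds, and of further kinds. In DMSO, 8 intestinal genes summed to 3616 to 4522 CPM and 10 fibroblast genes to 4607 to 5626. There 12 notochord genes summed to 949 to 1239 CPM and 11 ionocyte genes to 748 to 898. The TCDD sums of these lists are given below. Such sums do not measure the share of a tissue. In such bulk samples fewer cells of a type and less RNA per cell cannot be told apart.

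The 9 genes were chosen by symbol with results of the same comparison known, so they count as selected on the measured log2 fold changes between TCDD and DMSO, among them that of krt15. Their differences between TCDD and DMSO are therefore given as a description, with log2 fold changes (TCDD over DMSO) ± SE and no p-value, and nothing is supported with them. Levels of single genes are CPM on TMM-scaled library sizes, as means ± SD over n = 4 libraries of a group. All 9 log2 fold changes were below 0, with a median of -0.41, against 0.000046 for all 20522 genes tested. With library size alone the medians were -0.27 and 0.13. With TMM, lists for cardiomyocytes (median -0.462, 10 of 11 genes below 0), intestine (-0.375, 7 of 7) and fibroblasts (-0.379, 9 of 10) also lay low. The notochord (-0.00082) and ionocyte (0.097) medians did not. In the fit over all genes 3 of the 9 keratins were called lower in TCDD at an adjusted p under 0.05 and 0 were called higher. Of all genes tested, 5.72% were called, 2.73% lower and 2.99% higher. The 3 were krt15, krtt1c19e and cyt1l. In 2 of the 9, krt15 and krtt1c19e, every TCDD library lay below every DMSO library, as in 6.35% of all genes tested. Because the choice of genes used this comparison, nothing is read from these counts.

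**Figure D1:**
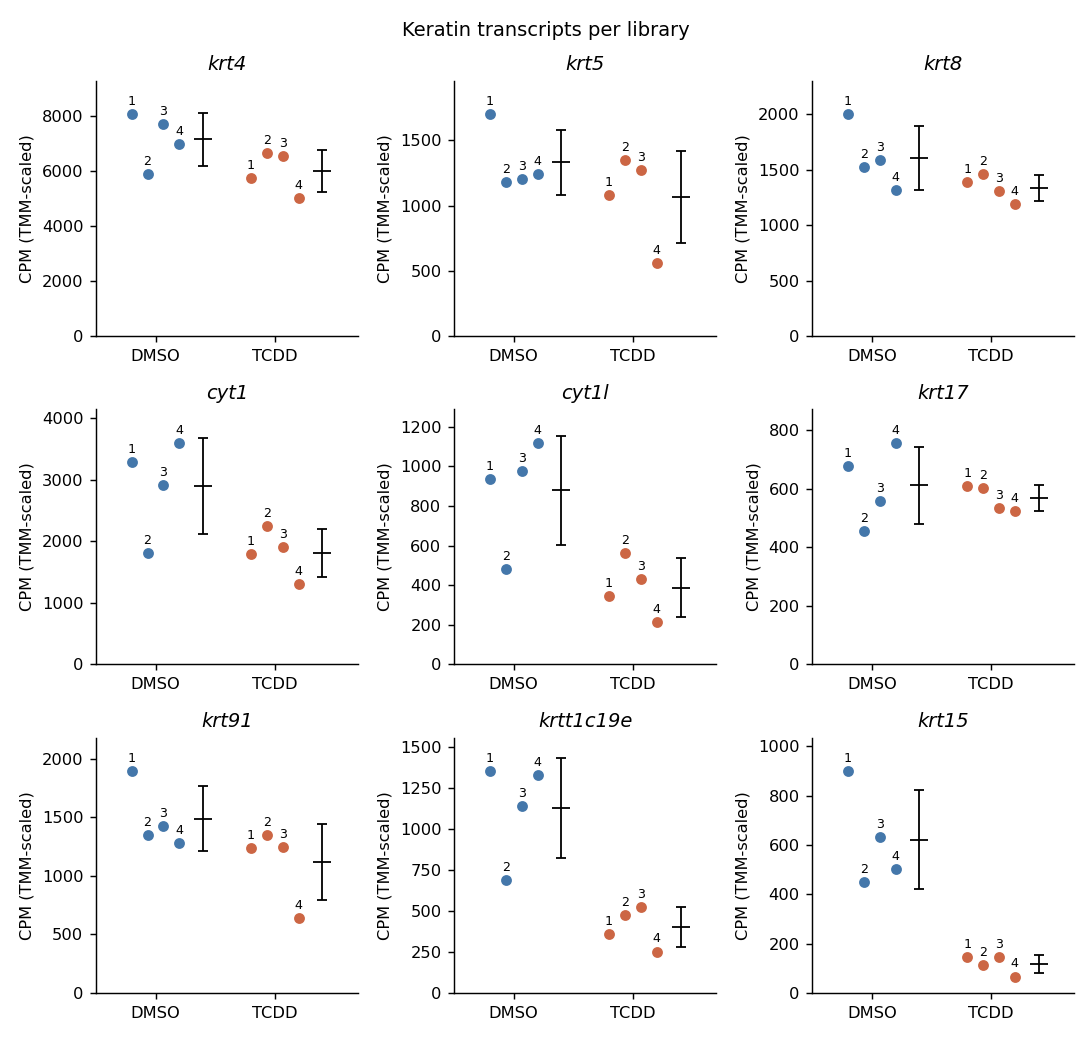
CPM on TMM-scaled library sizes (y axis, from 0) of each of the 9 keratins in the DMSO (blue) and TCDD (orange) libraries; each point is 1 library with its replicate number, and the black bar is the mean ± SD of 4 libraries. The groups are apart for krtt1c19e and krt15 and overlap for the other genes, and TCDD 4 is the lowest TCDD library in every panel.

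The type II keratins of the set had overlapping groups. The gene krt4, which marks the outer epidermal layer, was at 8064, 5883, 7726 and 6972 CPM in DMSO 1 to 4 and at 5735, 6651, 6546 and 5030 CPM in TCDD 1 to 4. The groups overlapped, since DMSO 2 lay below TCDD 2 and TCDD 3, and the log2 fold change was -0.26 ± 0.18. The gene krt8, the type II keratin of simple epithelia in vertebrates, was at 2000, 1525, 1590 and 1314 CPM in DMSO and 1385, 1459, 1311 and 1190 CPM in TCDD (-0.27 ± 0.16). Here too the groups overlapped, and on this scale DMSO 1 stood above all other libraries. On library size alone DMSO 1 was at 1649 CPM, close to DMSO 2 at 1611 CPM. As deposited TPM it was at 771, below every TCDD library (783 to 882).

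The remaining type II gene, krt5, depended on single libraries in both groups. It was at 1701, 1180, 1203 and 1246 CPM in DMSO and at 1078, 1349, 1274 and 562 CPM in TCDD, with a log2 fold change of -0.32 ± 0.25. On this scale the libraries DMSO 1 (high) and TCDD 4 (low) were apart from the rest, while the other 3 DMSO libraries lay within the range of the TCDD libraries. For DMSO 1 this depended on its low scaling factor (0.825). On library size alone it was at 1402 CPM, against 1167 to 1246 CPM in the other DMSO libraries. As deposited TPM it was at 590, below DMSO 2 at 665, while TCDD 4 stayed the lowest at 333. Without TCDD 4 the log2 fold change was -0.11.

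Among the type I keratins, krt15 had the largest difference. It was at 899, 452, 633 and 504 CPM in DMSO and at 147, 115, 145 and 66.5 CPM in TCDD. The lowest DMSO library thus held more than the highest TCDD library, and the DMSO mean was 5.26 times the TCDD mean (622 ± 200 and 118 ± 37.3 CPM; -2.40 ± 0.28). Over 17 other fits, among them 8 that each left out 1 library, the log2 fold change of krt15 was -2.52 to -2.16.

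The basal keratinocyte keratin krtt1c19e came next. It was at 1355, 693, 1145 and 1330 CPM in DMSO and at 357, 474, 524 and 253 CPM in TCDD. The DMSO mean was 2.81 times the TCDD mean (1131 ± 307 and 402 ± 121 CPM; -1.49 ± 0.26), and the groups were apart although DMSO 2 was well below the other DMSO libraries. Over the other 17 fits the value was -1.67 to -1.32; the gene was not called without both DMSO 1 and TCDD 2, where the value was -1.49.

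The genes cyt1 and cyt1l encode a pair of type I cytokeratins and lie next to each other. The gene cyt1, the more abundant, was at 3293, 1812, 2913 and 3601 CPM in DMSO and at 1795, 2247, 1906 and 1308 CPM in TCDD (-0.68 ± 0.23). The single low DMSO library, DMSO 2, lay among the TCDD libraries, and without it the log2 fold change was -0.85 and the gene was called. DESeq2 called cyt1 with all libraries kept (-0.68), while limma-voom did not (-0.66). The gene cyt1l was at 938, 482, 977 and 1119 CPM in DMSO and at 344, 565, 429 and 213 CPM in TCDD (-1.18 ± 0.31). Its groups overlapped through DMSO 2 and TCDD 2, and its call was near the threshold: it was lost in 12 of the 17 other fits, among them those without DMSO 1 (-1.15), DMSO 3 (-1.13), DMSO 4 (-1.04), TCDD 1 (-1.13), TCDD 3 (-1.24) or TCDD 4 (-0.98) and that with the replicate number as a block (-1.21).

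The type I genes krt91 and krt17 had the smallest differences of their type. The gene krt91 was at 1892, 1346, 1426 and 1282 CPM in DMSO and at 1239, 1351, 1242 and 643 CPM in TCDD (-0.41 ± 0.23), so that 3 of the 4 TCDD libraries lay close to the lower DMSO libraries and TCDD 4 lay far below them. Without TCDD 4 its log2 fold change was -0.22. The gene krt17 was at 676, 457, 558 and 757 CPM in DMSO and at 610, 602, 534 and 523 CPM in TCDD (-0.11 ± 0.16), with all 4 TCDD libraries inside the DMSO range. Its sign was not stable: it was 0.03 with library size alone and 0.01 without DMSO 4.

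Estimated counts that are not whole numbers show where reads were shared between genes. The counts of krt4, krt5, krt8, krt15 and krtt1c19e were whole in all 8 libraries. Those of krt91, cyt1 and cyt1l had a fraction in 8 libraries and those of krt17 in 6. A split of reads with other genes thus enters these 4 values and they are uncertain. Which genes shared the reads was not tested. Summing cyt1 and cyt1l removes any split between that pair. Their sum was 4231, 2294, 3890 and 4720 CPM in DMSO and 2139, 2811, 2335 and 1521 CPM in TCDD. DMSO 2 again lay among the TCDD libraries, and the DMSO mean was 1.72 times the TCDD mean (3784 ± 1050 and 2201 ± 534 CPM).

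Levels of different genes were compared per transcript length, as the TPM that the authors deposited. In DMSO the order from high to low was krt4 (3072 ± 306 TPM), cyt1 (2437 ± 514), krt91 (1125 ± 121), krt8 (802 ± 120), krtt1c19e (801 ± 147), cyt1l (718 ± 203), krt5 (595 ± 49.0), krt17 (514 ± 91.9) and krt15 (445 ± 60.3). The ranges of cyt1 and krt91, and those of krt91 and krt8, did not overlap in DMSO; every other pair of neighbours in that order overlapped. Within TCDD the first 4 places were held by the same genes in the same order. Below them stood krt17 (595 ± 25.0 TPM), krt5 (592 ± 186), cyt1l (396 ± 143), krtt1c19e (360 ± 105) and krt15 (108 ± 31.9). In TCDD the ranges did not overlap between krt4 and cyt1, cyt1 and krt91, krt8 and krt17, or krtt1c19e and krt15. The range of krt15 lay below that of krtt1c19e in both groups (376 to 510 against 627 to 974 TPM in DMSO). Against krt17, the range of krt15 overlapped in DMSO and lay below in TCDD (64.5 to 134 against 567 to 618 TPM). The TPM means of krt4 (3198 ± 347), krt8 (830 ± 40.7) and krt17 were higher in TCDD than in DMSO, while their CPM means were lower: for these 3 genes the direction depends on the scale. As deposited FPKM, krt4 (3044 ± 238 and 2803 ± 291) and krt8 (793 ± 85.6 and 728 ± 44.3) were again lower in TCDD and krt17 was slightly higher (511 ± 97.4 and 522 ± 32.2).

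Shares within the set do not depend on the scaling of a library. The 9 keratins summed to 10510 ± 816 TPM in DMSO and 9042 ± 1410 TPM in TCDD. Of that sum krt15 held 5.31, 4.15, 4.32 and 3.33% in DMSO 1 to 4 and 1.48, 0.992, 1.35 and 0.897% in TCDD 1 to 4. The share of krtt1c19e was 7.60 ± 0.985% in DMSO and 3.92 ± 0.641% in TCDD, and that of cyt1l was 6.76 ± 1.46% and 4.28 ± 0.954%. The share of krt4 was 26.9 to 31.6% in DMSO and 33.5 to 39.6% in TCDD, so its groups did not overlap, whereas cyt1 held 23.1 ± 3.38% and 21.1 ± 0.911%. Shares of a sum are tied to each other: lower shares of krt15, krtt1c19e and cyt1l raise that of krt4 without any more krt4 RNA. Whether krt4 itself was higher depends on the scale. Its log2 fold change in CPM was -0.26 ± 0.18, while its mean TPM was 3072 in DMSO and 3198 in TCDD. Within a library, krtt1c19e stood at 0.263 ± 0.0519 of the level of krt4 in DMSO and at 0.111 ± 0.0214 in TCDD, and krt15 at 0.147 ± 0.0303 and 0.0335 ± 0.00927; these ratios were chosen after the values were seen.

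**Figure D2:**
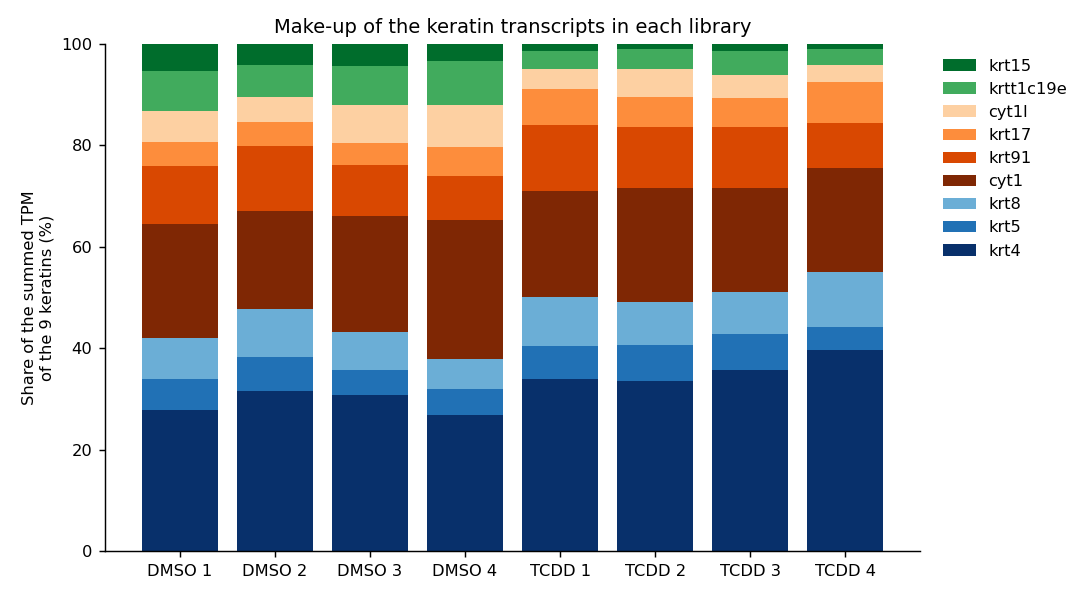
Share (%) of the summed TPM of the 9 keratins held by each gene (colours) in each of the 8 libraries, with the type II genes krt4, krt5 and krt8 in blue at the bottom. The share of krt15 (dark green) is 3.33 to 5.31% in DMSO and 0.897 to 1.48% in TCDD.

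The balance of the 2 keratin types lay apart in the groups, as a description of the same chosen genes. Summed TPM of the 6 type I genes over that of the 3 type II genes was 1.38, 1.10, 1.32 and 1.65 in DMSO and 0.999, 1.04, 0.955 and 0.815 in TCDD. The type I sum was 6040 ± 797 TPM in DMSO and 4423 ± 875 in TCDD, while the type II sum was 4469 ± 375 and 4620 ± 550. With the 3 called genes left out, the ratio of krt17, krt91 and cyt1 to the type II genes was 0.774 to 1.11 in DMSO and 0.679 to 0.822 in TCDD, and the groups overlapped. The type I transcripts were short, with implied lengths of 1127 to 1328 bases against 1919 to 2232 bases for type II. Over all genes the median log2 fold change ran from -0.26 in the shortest of 10 length classes (up to 819 bases) to 0.10 in the longest, and was -0.13 and -0.07 in the classes 2 and 3 that hold the type I keratins. With offsets for implied length the values were -2.32 for krt15, -1.42 for krtt1c19e, -1.09 for cyt1l, -0.58 for cyt1, -0.33 for krt91 and -0.01 for krt17. For type II they were -0.28 for krt4, -0.34 for krt5 and -0.26 for krt8, against -0.26, -0.32 and -0.27 without offsets.

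The variation among libraries of a group was not used to choose the genes. After removing group means from log2 CPM, the Pearson correlation over the 8 libraries was above 0 for all 36 pairs of the 9 keratins, with a median of 0.71, and above 0.5 for 29 pairs. The closest pairs were krt5 with krt91 (r = 0.975, and 0.879 to 0.986 when each library was left out in turn) and cyt1 with cyt1l (0.966, and 0.955 to 0.975). The genes krt5 and krt91 are of different type and do not lie together. The genes krtt1c19e, cyt1, cyt1l and krt4 formed a second group with r of 0.846 to 0.966 among them. The weakest pair was krt8 with krt17 (0.0948, and -0.291 to 0.901). These values are descriptions over 8 libraries and carry no p. All genes of a library share its depth and its scaling factor, which was 0.825 in DMSO 1 and 0.972 to 1.09 in the others. The part of that in r was not tested. Whether pairs of other genes at such levels reach like values was not tested. The counts of cyt1, cyt1l and krt91 had a fraction in all 8 libraries, so a split of reads may enter their values.

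**Figure D3:**
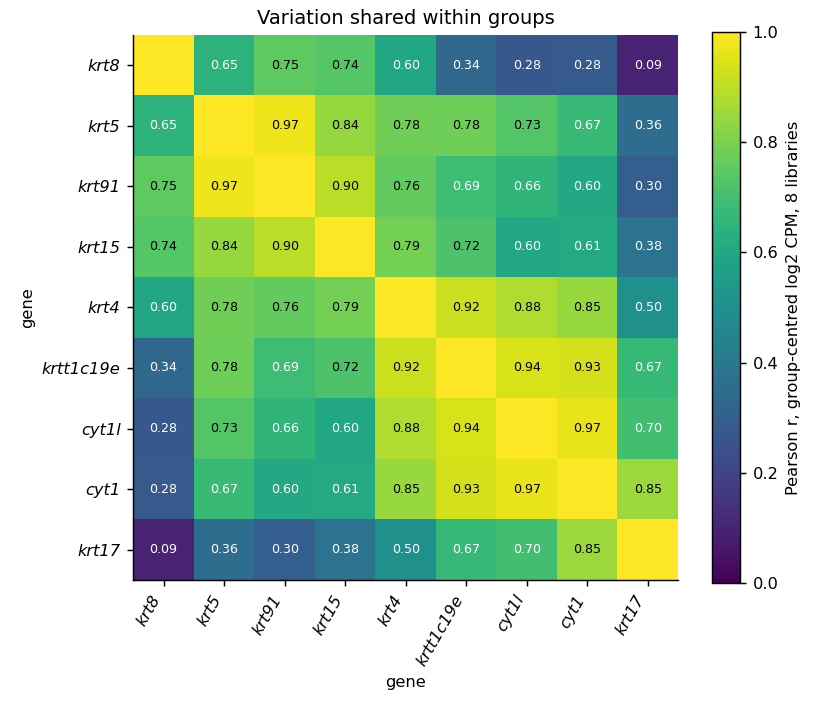
Pearson r over 8 libraries between the group-centred log2 CPM of each pair of the 9 keratins (rows and columns; colour scale from 0 to 1). The values run from 0.09 (krt8 with krt17) to 0.97 (krt5 with krt91, cyt1 with cyt1l).

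On TMM-scaled CPM the mean within-group pattern of the 9 keratins was high in DMSO 1 (0.937 on a standardized scale) and TCDD 2 (0.754). It was low in DMSO 2 (-1.12) and TCDD 4 (-1.41). The 10 genes most like it, out of 14211 genes averaging 5 CPM or more, were foxc1b, loxa, nog3, mdh1ab, tbx20, tmem59, zgc:113307, fgf10a, hsd11b1lb and rnf34a, with r of 0.971 to 0.991. None of them is among the 13 other keratins searched. The 9 keratins define the pattern, so their own match to it would show nothing. An r above 0.9 with the pattern was found for 1.24% of the genes searched and one above 0.5 for 26.6%, with a median of 0.0841. Among the 13 other keratins searched, 6 were above 0.5, led by krt92 (0.898), krt93 (0.886) and krt1-19d (0.867). Of 19 periderm genes 6 were above 0.5, led by icn2 (0.970, rank 12), and the median of the 19 was 0.219. The gene krt92 counts in both of these lists. Of 14 basal epidermis genes 6 were above 0.5 as well, with a median of 0.231. For epithelial identity it was 3 of 17 (median -0.0716), and for desmosomes and linkers 2 of 13 (median 0.125). The pattern was thus not particular to the periderm list. DMSO 1 and TCDD 2 were also the libraries apart on the second principal component, and the part of that in the pattern was not tested. The place of DMSO 1 depended on the scale. As summed TPM of the 9 keratins it was the lowest DMSO library (9610, against 10040, 11080 and 11310 in DMSO 2 to 4). On library size alone the sum was 17160 CPM, against 14610, 17630 and 17710. The part of its scaling factor (0.825) in the pattern was not tested.

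In the RefSeq table of another assembly (GRCz12tu), used here for the order of genes alone, the keratin genes lie in runs. The genes krt1-19d, krtt1c19e, krt92, cyt1l, cyt1, krt17 and krt91 follow each other with no other coding gene between them. Along this run the log2 fold change was 0.73 ± 0.42, -1.49 ± 0.26, -0.25 ± 0.24, -1.18 ± 0.31, -0.68 ± 0.23, -0.11 ± 0.16 and -0.41 ± 0.23. Next to krtt1c19e, the gene krt1-19d was at 368, 170, 354 and 184 CPM in DMSO and at 385, 543, 688 and 169 CPM in TCDD. It did not pass the test (edgeR adjusted p = 0.35), and its libraries overlapped, but its ratio to krtt1c19e, chosen after the values were seen, was 0.157 to 0.351 in DMSO and 0.759 to 1.49 in TCDD. Another run holds krt93, krt94, krt98, krt15 and krt99, and a further one krt5, krt8, krt18a.1 and krt18a.2.

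**Figure D4:**
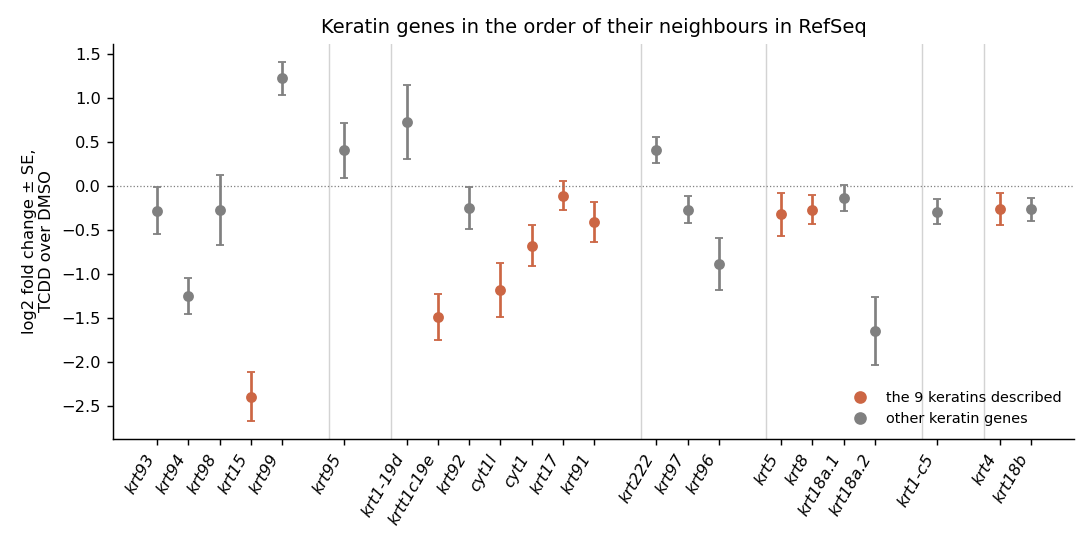
Log2 fold change (TCDD over DMSO) ± SE of 23 keratin genes in the order in which they neighbour each other; vertical lines part the runs, orange marks the 9 keratins and grey the other 14. Genes of 1 run differ: krt99 lies at 1.23 and its neighbour krt15 at -2.40.

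The other 14 keratin genes were taken by a rule on their symbols. Of these, 1 rose, 2 fell and 11 did not pass, while 2.99% of all genes tested were called higher and 2.73% lower. The log2 fold changes of these 14 had a median of -0.27. On unscaled library sizes it was -0.12, against 0.13 for all genes. The gene krt94, of the run of krt15, fell from 524, 307, 385 and 274 CPM in DMSO to 176, 161, 175 and 115 CPM in TCDD (-1.25 ± 0.21, edgeR adjusted p = 0.0060). All TCDD libraries lay below all DMSO libraries, as with krt15, yet the TPM ratio of krt15 to krt94 was also lower in TCDD, at 0.709 ± 0.115 against 1.60 ± 0.147.

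In the same run krt99 rose, from 8.23, 4.78, 8.18 and 6.08 CPM to 12.5, 18.0, 16.3 and 16.9 CPM (1.23 ± 0.19, edgeR adjusted p = 0.0038), with no overlap between the groups. The gene krt18a.2 fell at a level of 11 to 19 counts per DMSO library and 3 to 8 per TCDD library (-1.65 ± 0.38, edgeR adjusted p = 0.028). Its edgeR adjusted p was above 0.05 when DMSO 2 (0.0537), DMSO 3 (0.0728), TCDD 1 (0.0815), TCDD 2 (0.0873) or TCDD 4 (0.0703) was left out. The scarce gene krt96 lay lower in every TCDD library, at 4.41 to 4.91 CPM against 5.63 to 15.5, and did not pass (-0.88 ± 0.29, edgeR adjusted p = 0.107; 0.0411 with DESeq2).

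The gene krt18a.1, which carries the older name krt18 and encodes the simple-epithelium partner of Krt8 in vertebrates, was at 804, 553, 726 and 569 CPM in DMSO and 603, 618, 572 and 621 CPM in TCDD. All TCDD libraries lay inside the DMSO range (-0.14 ± 0.15, edgeR adjusted p = 0.635; 0.01 with library size alone).

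Of 19 periderm genes other than the 9 keratins, 10 rose, 0 fell and 9 did not pass. This list and those below were chosen with earlier results of these data known. Their counts, medians and adjusted p-values are therefore given as a description. Among all genes tested 2.99% were called higher and 2.73% lower. The median log2 fold change of the 19 was 0.64, against 0.000046 for all genes. On unscaled library sizes it was 0.77, against 0.13 for all genes. The grainyhead-like transcription factor gene grhl3, which acts in the outer epidermis and in barrier formation, rose from 16.6 ± 2.69 to 52.4 ± 7.90 CPM (1.66 ± 0.15, edgeR adjusted p = 0.00015), and its relative grhl1 from 61.0 ± 4.89 to 107 ± 5.43 CPM (0.82 ± 0.10, edgeR adjusted p = 0.0010). The envoplakin gene evpla, whose product links the cornified envelope to keratin filaments in mammals, rose from 47.2 ± 8.52 to 98.4 ± 14.1 CPM (1.06 ± 0.15, edgeR adjusted p = 0.0025). The secreted disulfide isomerase gene agr1 rose from 57.5 ± 9.36 to 138 ± 27.6 CPM (1.26 ± 0.16, edgeR adjusted p = 0.0013). The genes grhl3, grhl1, evpla and agr1 were named because they had the smallest p of this list in the same fit. Their adjusted p-values are thus no tests of genes named beforehand. Genes of the lists below were likewise named after their values were seen. Others of the periderm list that rose, also named after their values were seen, included ppl, anxa1b, cldne, cldnf and evplb. The list also holds the keratin krt92, which did not pass (-0.25 ± 0.24, edgeR adjusted p = 0.597).

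Regulators and junction genes of epithelial identity rose in 13 of 19 cases and fell in 0. As with the periderm list, this describes a list chosen with earlier results of these data known. Among all genes tested 2.99% were called higher and 2.73% lower. The median log2 fold change of this list was 0.63. On unscaled library sizes it was 0.76, against 0.13 for all genes. The transcription factor gene tfap2c rose from 29.9 ± 3.22 to 64.6 ± 4.24 CPM (1.11 ± 0.11, edgeR adjusted p = 0.00024). The epithelial splicing regulator genes esrp1 (40.5 ± 6.41 to 85.8 ± 9.02 CPM; edgeR adjusted p = 0.0012) and esrp2 (66.0 ± 4.68 to 110 ± 6.82 CPM; edgeR adjusted p = 0.0018) rose too, as did the protease inhibitor gene spint1b (0.71 ± 0.12, edgeR adjusted p = 0.0055). All 13 calls of this list were among the 13 made without both DMSO 1 and TCDD 2, and 9 of the 10 periderm calls were made in that fit. Whether these lists differ from the keratins was not tested.

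Basal keratinocyte genes mark the layer of krtt1c19e. Of 15 tested 1 fell, 0 rose and 14 did not pass, a share near the 5.72% called among all genes. Their median log2 fold change of 0.01 ran from -0.12 without DMSO 4 to 0.20 without TCDD 4. On unscaled library sizes it was 0.15, against 0.13 for all genes. The master regulator gene of stratified epithelia tp63 was at 66.2 ± 9.92 and 83.7 ± 6.71 CPM (0.34 ± 0.12, edgeR adjusted p = 0.131; 0.038 without DMSO 2). The tetraspanin gene cd9b was at 105 ± 18.7 and 148 ± 14.9 CPM (0.49 ± 0.14, edgeR adjusted p = 0.057; 0.0118 without DMSO 1), and the anchoring fibril collagen gene col7a1 at 21.3 ± 4.15 and 14.5 ± 4.12 CPM (-0.56 ± 0.21, edgeR adjusted p = 0.155; 0.0392 with the replicate block). The matrix gene tgfbi fell from 169 ± 2.96 to 129 ± 9.27 CPM (-0.39 ± 0.10, edgeR adjusted p = 0.036). Its edgeR adjusted p was above 0.05 when any library but DMSO 1 or DMSO 2 was left out (0.0582 without TCDD 3 to 0.126 without TCDD 1), on unscaled library sizes (0.166) and under the replicate block (0.0535).

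Of 14 genes tested for desmosomes and the proteins that hold keratin filaments, 1 rose and 0 fell, again near the share of all genes called. Their log2 fold changes had a median of 0.15, or 0.07 with offsets for implied length. The rise was that of the envoplakin gene evplb, also on the periderm list, from 324 ± 52.3 to 577 ± 149 CPM (0.83 ± 0.20, edgeR adjusted p = 0.030). It missed the threshold when DMSO 3 (0.0621), DMSO 4 (0.0768), TCDD 1 (0.059), TCDD 2 (0.0896) or TCDD 3 (0.0872) was dropped. The plakoglobin gene jupa was higher in all TCDD libraries without passing (282 ± 27.4 and 378 ± 37.0 CPM; edgeR adjusted p = 0.068; 0.0453 without DMSO 1). The desmoglein gene dsg2.1 (41.3 ± 11.1 and 61.2 ± 19.9 CPM; edgeR adjusted p = 0.199) and the junction gene perp (163 ± 17.8 and 189 ± 8.42 CPM; edgeR adjusted p = 0.271) did not pass.

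**Figure D5:**
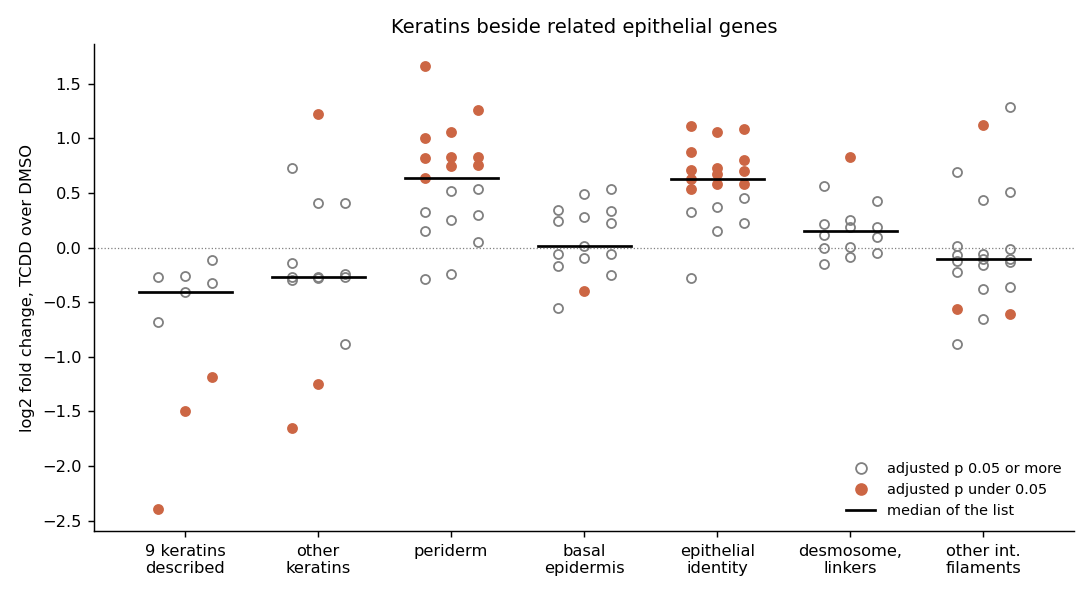
Log2 fold change (TCDD over DMSO, y axis) of each tested gene of 7 lists (x axis); orange points have an adjusted p under 0.05 in the fit over all genes, grey circles do not, and black bars are medians. The medians are -0.41 for the 9 keratins and -0.27 for the other keratins, and 0.64 and 0.63 for the periderm and epithelial identity lists.

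Of 21 intermediate filament genes outside the keratin family, 1 rose, 2 fell and 18 did not pass, and their median log2 fold change was -0.10. Among all genes tested 2.99% were called higher and 2.73% lower. The mesenchymal filament gene vim fell from 136 ± 16.8 to 89.5 ± 3.12 CPM (-0.61 ± 0.11, edgeR adjusted p = 0.0092). The muscle filament gene desmb fell (-0.56 ± 0.15, edgeR adjusted p = 0.048) and the neurofilament gene nefmb rose (1.12 ± 0.26, edgeR adjusted p = 0.030). The call of nefmb was lost without DMSO 1 (0.0703), DMSO 3 (0.0699), DMSO 4 (0.0704), TCDD 2 (0.0695) or TCDD 3 (0.0625), and that of desmb in 7 of the 8 fits that left out 1 library and with library size alone (0.106). The neurofilament gene nefla was at 2.22 ± 0.682 and 5.48 ± 2.79 CPM (edgeR adjusted p = 0.083; 0.0068 without TCDD 4 and 0.0307 with the replicate block).

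Markers of other cells that can make keratins or lie near the skin were counted in the same fit. In that fit 2.73% of all genes tested were called lower and 2.99% higher. Of 7 intestinal genes tested 2 were called lower (fabp2 and anpepb) and 0 higher, and the sum over all 8 was 3616 to 4522 CPM on library size alone in DMSO and 2745 to 3430 in TCDD. Of 10 notochord genes tested 2 were called lower (col9a1a and epyc) and 0 higher, with 5 log2 fold changes above and 5 below 0. The sum over 12 notochord genes was 949 to 1239 and 663 to 836 CPM, and most of it came from col9a1a (583 and 361 CPM) and epyc (405 and 216 CPM). Of 11 ionocyte genes 1 was called higher (ca2) and 1 lower (ca15a), with a median log2 fold change of 0.10. Their sum was 748 to 898 and 1068 to 1266 CPM, and trpv6 and ca2 held the most counts in TCDD. Of 10 fibroblast genes 0 were called by edgeR and by limma-voom, although 7 had an unadjusted edgeR p under 0.05, and DESeq2 called 3. Their median log2 fold change was -0.38 and their sums overlapped, at 4607 to 5626 and 3286 to 4730 CPM. The notochord genes tbxta and noto and the intestinal gene fabp6 were too scarce to test, and no gene of these lists was at 0 in all libraries. Genes named here were picked after their values were seen, and the part of these lists in the keratin values was not tested.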

How the data were processed

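The authors deposited for each of 8 libraries 3 values per gene, namely TPM, FPKM and an estimated count. Per the file headers and values, the estimated counts are expected counts without normalization, and the deposited TPM and FPKM were scaled by the authors for length and depth. Bowtie2 and GRCz11 are named in the submitters' processing notes; the quantifier is not given in the sources used here. Expected counts were rounded, and a model over all genes was fitted in R 4.3.3 by edgeR 4.0.16 (TMM, filterByExpr, quasi-likelihood F-test, robust, two-sided, treatment as the term, Benjamini-Hochberg over 20522 genes, called at an adjusted p under 0.05), tested on simulated data. The SE is the log2 fold change over the square root of F. Group-centred values are log2(CPM + 0.5). Implied lengths come from count and FPKM, for genes with at least 10 counts in a library.

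The genes and lists were chosen with earlier results of these data known. Named were the 9 keratins, up to 4 genes of smallest p per list and the 10 nearest patterns. Of the lists, 2 basal and 4 desmosome symbols were not matched, and 1 basal gene was below the filter. The part of the keratin rule that needed product names could not be applied. Alternatives were DESeq2 1.42.0, limma-voom (3.58.1), RLE factors, library size alone, other filters, thresholds of 0.01 and 0.10, the replicate block, offsets for length (span 0.3), libraries left out, and FPKM in place of TPM for levels. Sequences were not analysed here, and 1 listed gene is not reported by name here.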

Additional observations from a re-analysis of the deposited data

Results flagged for a closer look

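In 3 of 50 groups of 4 libraries, 1 library lay far from the other 3 by Dixon's 95% critical value for 4 samples; chance gives about 1 in 20. The keratin gene krt5 was at 1701 CPM in DMSO 1 and at 1180 to 1246 CPM in the other DMSO libraries (gap 0.873 of the range). The gene krt91 was at 643 CPM in TCDD 4 and at 1239 to 1351 CPM in the other TCDD libraries (0.843). The gene krt96 was at 15.5 CPM in DMSO 1 and at 5.63 to 7.12 CPM in the other DMSO libraries (0.849). These 3 values are TMM-scaled CPM, and DMSO 1 had the lowest scaling factor (0.825). On library size alone the gaps of DMSO 1 were narrower. There krt5 was at 1402 CPM, against 1167 to 1246, and krt96 at 12.8 CPM, against 5.50 to 7.52. The gene krt91 was then at 702 CPM in TCDD 4, against 1281 to 1384.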

How the results depend on the processing

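Called genes numbered 1174, against 616 without both DMSO 1 and TCDD 2, 1987 with DESeq2, and 327 and 2070 at adjusted p thresholds of 0.01 and 0.10; with 1 library left out they ran from 523 to 1854. Keratins of the set called numbered 3, against 4 with DESeq2 and 1 without both DMSO 1 and TCDD 2. They numbered 2 with limma-voom, library size alone, no filter, the replicate block, offsets for length or a threshold of 0.01. With 1 library left out they ran from 2 to 4. Basal epidermis calls numbered 1, against 2 with offsets for length, DESeq2 or a threshold of 0.10 and 0 at 0.01, with 0 to 2 when 1 library was left out. Desmosome calls numbered 1, against 2 with library size alone, DESeq2 or a threshold of 0.10, and 0 without both DMSO 1 and TCDD 2, with offsets for length or at 0.01, with 0 to 2 when 1 library was left out. Other intermediate filament calls numbered 3, against 5 with the replicate block and 1 without both libraries or at 0.01, and ran from 1 to 3 with 1 library left out. The counts of the other keratin (2 to 3), periderm (8 to 12) and epithelial identity (9 to 15) lists stayed within 1.5 times throughout. The sign of krt17 turned with library size alone (0.032) and without DMSO 4 (0.0094; -0.23 to 0.0094 with 1 library left out), that of krt18a.1 with library size alone (0.011) and that of krt98 without DMSO 1 (0.020; -0.57 to 0.020 with 1 library left out). With FPKM in place of TPM the TCDD levels of krt4 (2803), krt8 (728) and krt17 (522) moved by more than their SD, and krtt1c19e and krt8 changed places in the DMSO order. The causes were not tested.

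Same-numbered libraries had correlations of deviations of -0.366, -0.307, 0.163 and 0.35, and libraries of different number had -0.517 to 0.631. These values of mixed sign cannot decide whether the replicate numbers pair the samples. With the number as a block, 2 of the 3 keratin calls were made, without cyt1l, and 1 further periderm gene was called. Of the other named genes, tgfbi lost its call under the block (adjusted p = 0.0535) and col7a1 (0.0392) and nefla (0.0307) gained one.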
